A study of Homo sapiens with 6 samples.

Results

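The collagen chain genes are the 43 genes, of 18234 in the deposited miR-CLIP table, whose symbol has the form COL, a number, A and a number. They were chosen by symbol alone and none was dropped for its values. They were grouped by the type of collagen their chains build: 11 fibrillar genes, 6 genes of basement membrane type IV, 5 genes of microfibrillar type VI, 9 fibril-associated genes and 12 genes of other types. COL20A1 was not analysed here.

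Both groups of libraries came from IMR90, a human lung fibroblast line. The cells had been infected with a retrovirus that expresses RASV12, an oncogenic form of RAS. They were selected with puromycin at 1.5 µg/ml for 3 days and seeded on day 10. At 24 hours after seeding they were transfected with a miR-146a mimic carrying an internal psoralen and biotin. Dose and times are the same for all 6 samples. The miR-CLIP group has 3 libraries and the Input group has 3, so the RAS construct, the mimic and the line are common to all 6. In miR-CLIP, RNA bound to the Argonaute protein AGO2 is immunoprecipitated and RNA held by the biotinylated mimic is then captured on streptavidin. The labels describe this purification once for every sample, and the sources used here do not say how Input RNA was taken. Libraries with an empty vector or an unmodified mimic, which the labels' protocols mention, were not analysed here. Separate cultures are not named for the libraries of a group in any label. The p-values therefore reflect the spread among these 6 libraries, part of which may be technical.

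Collagens are trimers of alpha chains wound into a triple helix, in which every chain carries long Gly-X-Y repeats. Fibrillar chains pack into the banded fibrils of the interstitium, type IV chains form the sheet of basement membranes, type VI chains form beaded microfilaments close to cells, and fibril-associated chains decorate the fibril surface. Lung fibroblasts are known as a main source of the interstitial chains. miR-146a is known for pairing through its seed with the messages of innate immune signalling proteins such as the kinase IRAK1.

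The mature miR-146a-5p sequence is shown because its seed defines the sites searched for in the collagen messages. It lies at chr5:160485372-160485393 on the plus strand (RefSeq, GRCh38.p14), and the capitals mark the seed, bases 2 to 8.
miR-146a-5p: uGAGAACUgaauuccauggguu

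A 7mer-m8 site, AGTTCTC, is the reverse complement of bases 2 to 8. A 7mer-A1 site, GTTCTCA, pairs with bases 2 to 7 and is followed by an A. An 8mer, AGTTCTCA, holds both and was counted under each. Sites were searched on the transcript strand of the GENCODE release 29 isoform with the longest complete coding sequence of each gene. The windows below carry 8 bases on either side of the site, with the site in capitals, and were taken from GENCODE release 29 transcripts (GRCh38). They are all the 3′ UTR sites found in the 43 genes.
COL6A3, 7mer-m8, chr2:237324559-237324565, minus strand: ctccaggcAGTTCTCtcgaatac
COL1A1, 7mer-A1, chr17:50184951-50184957, minus strand: gacctgggGTTCTCAgactgcca
COL4A3, 7mer-m8, chr2:227312076-227312082, plus strand: tgtttcaaAGTTCTCtgtggcaa
COL4A3, 8mer, chr2:227313837-227313844, plus strand: aggccagtAGTTCTCAaagtgtgg
COL9A1, 7mer-m8, chr6:70216708-70216714, minus strand: attcagtaAGTTCTCtttccttt
COL9A1, 7mer-A1, chr6:70216487-70216493, minus strand: tagaagttGTTCTCAgattattg

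A 7mer-m8 was therefore present in the 3′ UTR of 3 of 43 collagen genes, 6.98%. Among the 6225 tested protein-coding genes with an annotated 3′ UTR it was present in 615, 9.88%, and site shares below use this set. A 7mer-A1 was present in the 3′ UTR of 3 collagen genes, 6.98%, against 12.4% of the tested protein-coding genes. The median 3′ UTR was 1067 nt for collagen genes and 953 nt for the tested protein-coding genes. These collagen shares count all 43 genes, tested or not, while the comparison holds tested genes only. Only COL6A3 and COL1A1 of the 4 genes with a 3′ UTR site had enough signal to be tested, since COL4A3 and COL9A1 had at most 3 reads in any library. Among the 37 tested collagen genes, COL6A3 alone thus had a 7mer-m8 in the 3′ UTR, and COL1A1 alone a 7mer-A1.

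Coding sequences held a 7mer-m8 in 4 of all 43 collagen genes, 9.30%, against 12.0% of the tested protein-coding genes. The median coding sequence was nevertheless 4500 nt for collagen genes and 1440 nt for the tested protein-coding genes. The windows are shown because those of COL5A3 and COL11A2 are alike: 17 of their 23 positions are identical, and the 7 bases after the first flanking base are the same. In both of these genes the site crosses a splice junction, so the genomic span contains an intron.
COL5A3, coding, chr19:9960886-9962820, minus strand: agggaagaAGTTCTCctacgtgg
COL11A2, coding, chr6:33164469-33164853, minus strand: cgtcacgcAGTTCTCttacgtgg
COL6A3, coding, chr2:237379058-237379064, minus strand: tgtaacggAGTTCTCtttaaaca
COL28A1, coding, chr7:7373339-7373345, minus strand: tttgaagcAGTTCTCcagcaagg

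Named A to C after their columns, the miR-CLIP libraries held 9378463, 8088221 and 6847837 reads over the rows of the table, and the Input libraries, in the same order, 12771968, 9379996 and 9295325. Values are normalised read counts, that is reads divided by the authors' size factor for each library. A count of 0 reads allows up to 3 reads, which is 3.10, 2.98 and 3.75 normalised reads in the miR-CLIP libraries and 1.84, 2.49 and 2.60 in the Input libraries, for counting error only. miR-CLIP B stood close to Input: its Pearson r across genes was 0.973 to 0.982 with the Input libraries, against 0.929 and 0.911 with miR-CLIP A and C. Calls for the collagen and pathway genes are therefore given with and without miR-CLIP B. IRAK1, the known target, had 3655, 1599 and 3486 normalised reads in miR-CLIP and 1615, 1573 and 1071 in Input, so that miR-CLIP B lay inside the Input range there too. Its log2 fold change was 0.97 ± 0.37 with all 6 libraries, not past the adjusted threshold, and 1.35 without miR-CLIP B (limma adjusted p = 0.00384). Fibroblast markers other than collagens, 6 of 13 listed being in the table, summed to between 73444 and 99095 normalised reads in miR-CLIP and between 74927 and 116812 in Input. Most of this sum was FN1, which had 75951, 84239 and 56447 in miR-CLIP and 101648, 73983 and 58252 in Input. Endothelial markers summed to between 125 and 248 in miR-CLIP and between 160 and 252 in Input, and blood cell markers to between 10.3 and 41.3 in miR-CLIP and between 8.67 and 25.1 in Input. Of 6 epithelial markers in the table, CDH1 was at 0 in every miR-CLIP library and at 0.61, 0 and 0.87 in Input. The list summed to between 536 and 2254 in miR-CLIP and between 1016 and 1362 in Input, and KRT18 alone had 454, 2000 and 946 in miR-CLIP and 979, 1180 and 860 in Input. Smooth muscle markers summed to between 491 and 3134 in miR-CLIP and between 1631 and 2028 in Input. Cartilage markers other than collagens summed to between 0 and 26.8 in miR-CLIP and between 4.90 and 12.5 in Input. Markers that were listed but have no row in the table are missing from all these sums and are not read as unexpressed. Without miR-CLIP B, limma called 3 epithelial markers (EPCAM, KRT8 and KRT19) and 2 smooth muscle markers lower in miR-CLIP. It also called 1 fibroblast marker, DCN, and 1 blood cell marker, CD14, lower. Of all genes tested, 16.1% were called lower in that fit. The part of epithelial, endothelial, blood, smooth muscle and cartilage cells in the collagen values was not tested.

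No collagen gene passed the adjusted threshold of 0.05 in limma with all 6 libraries, 0 of 37 tested, as for all 8506 genes tested (0%). The adjustment was Benjamini-Hochberg and the smallest adjusted p of a collagen gene was 0.611. At an unadjusted p under 0.05, COL7A1 and COL27A1 were on the higher side, 5.41% of the tested collagen genes against 2.4% of all genes tested, and none was on the lower side, where all genes tested gave 4.04%. Other tools run on reads recovered from the values gave, at the same unadjusted p, 3 collagen genes higher and 0 lower in edgeR (4.21% and 2.37% of all genes tested), 3 higher and 0 lower in DESeq2 (5.43% and 2.5%), and 0 in either direction in limma-voom (1.92% higher and 5.27% lower). The median log2 fold change, miR-CLIP minus Input, was 0.18 over the 37 collagen genes and -0.13 over all genes tested. With other scalings of the libraries the medians were 0.39 and 0.06 (upper quartile) and 0.14 and -0.17 (TMM), the collagen median first in each case. Of the 37, 25 had a positive and 12 a negative log2 fold change, against 3660 positive and 4846 negative of all genes tested. The log2 fold change sets miR-CLIP against Input libraries of the same cell line. It is not read here as a change in cell numbers or in RNA per cell.

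In 7 collagen genes every miR-CLIP library lay above every Input library: COL4A2, COL4A6, COL7A1, COL11A2, COL12A1, COL13A1 and COL27A1. In COL11A2 the margin was the difference between 6.951 normalised reads in miR-CLIP B and 6.939 in Input C, which are 7 and 8 reads. That is 18.9% of those tested, against 5.64% of all genes tested. In COL10A1 alone every miR-CLIP library lay below every Input library, which is 2.70% against 7.34%. In the authors' deposited table every collagen gene had an adjusted p of 1, and the smallest p-values were 0.0953 for COL27A1 (fold 1.62), 0.114 for COL11A2 (fold 3.54) and 0.137 for COL3A1 (fold 1.97), where 2.82% of 18221 genes had a p under 0.05.

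**Figure D1:**
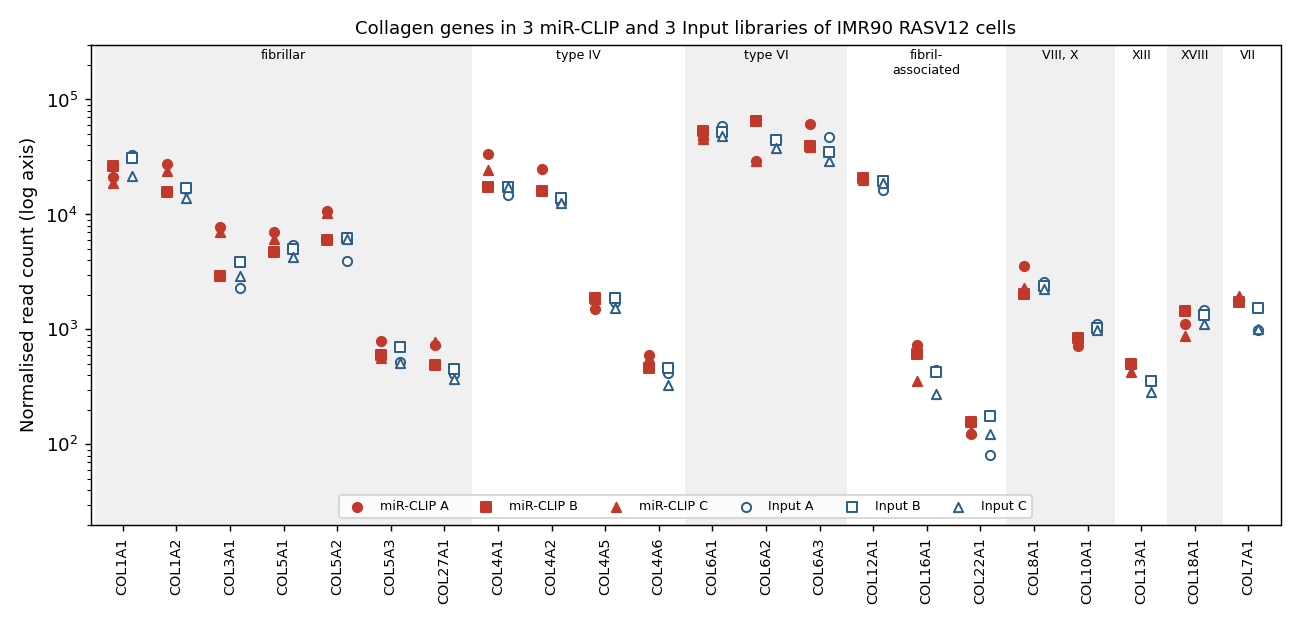
Normalised reads (log axis) of the 22 collagen genes with an Input mean of at least 100, with miR-CLIP libraries drawn left of Input libraries and 1 point per library. COL6A1, COL6A2, COL6A3 and COL1A1 have the highest Input means, COL22A1 lies lowest, and the groups overlap in 15 of the 22 genes.

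Shares were taken of the reads over the rows of the table, not of the whole library. Genes without a row, such as SLC19A1, are not counted in them. Collagen messages as a whole took 3.11%, 3.47% and 2.92% of these reads in the miR-CLIP libraries and 3.40%, 3.28% and 2.75% in the Input libraries. The mean share was 3.17% ± 0.28 in miR-CLIP and 3.15% ± 0.35 in Input (SD, n = 3 each), so the total differed by less than the spread between libraries. Type IV genes took 0.525% ± 0.091 of these reads in miR-CLIP and 0.401% ± 0.027 in Input. Type VI genes took 1.56% ± 0.35 in miR-CLIP and 1.68% ± 0.25 in Input, and fibrillar genes took 0.761% ± 0.044 in miR-CLIP and 0.746% ± 0.113 in Input.

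In Input, 8 genes (COL6A1, COL6A2, COL6A3, COL1A1, COL12A1, COL4A1, COL1A2 and COL4A2) held between 89.7% and 91.7% of all collagen reads. Levels of different genes were compared as normalised reads per kb of the same isoform as above. COL6A1 had 12529 ± 1245 and COL6A2 12235 ± 1171 per kb in Input (SD, n = 3), which overlapped, and both lay above every other collagen gene in each Input library. COL1A1 had 4211 ± 898, COL6A3 3434 ± 862, COL1A2 2947 ± 327 and COL4A1 2495 ± 216 per kb, and neighbours in this order overlapped. COL4A2 at 2005 ± 136 lay below COL4A1 in every Input library, and COL12A1 at 1557 ± 142 lay below COL4A2 without overlap. COL5A2 at 765 ± 183, COL5A1 at 579 ± 67.0, COL3A1 at 542 ± 141 and COL8A1 at 423 ± 29.3 each overlapped with the next of these, and COL10A1 at 296 ± 19.0 per kb came next, below COL8A1 without overlap.

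**Figure D2:**
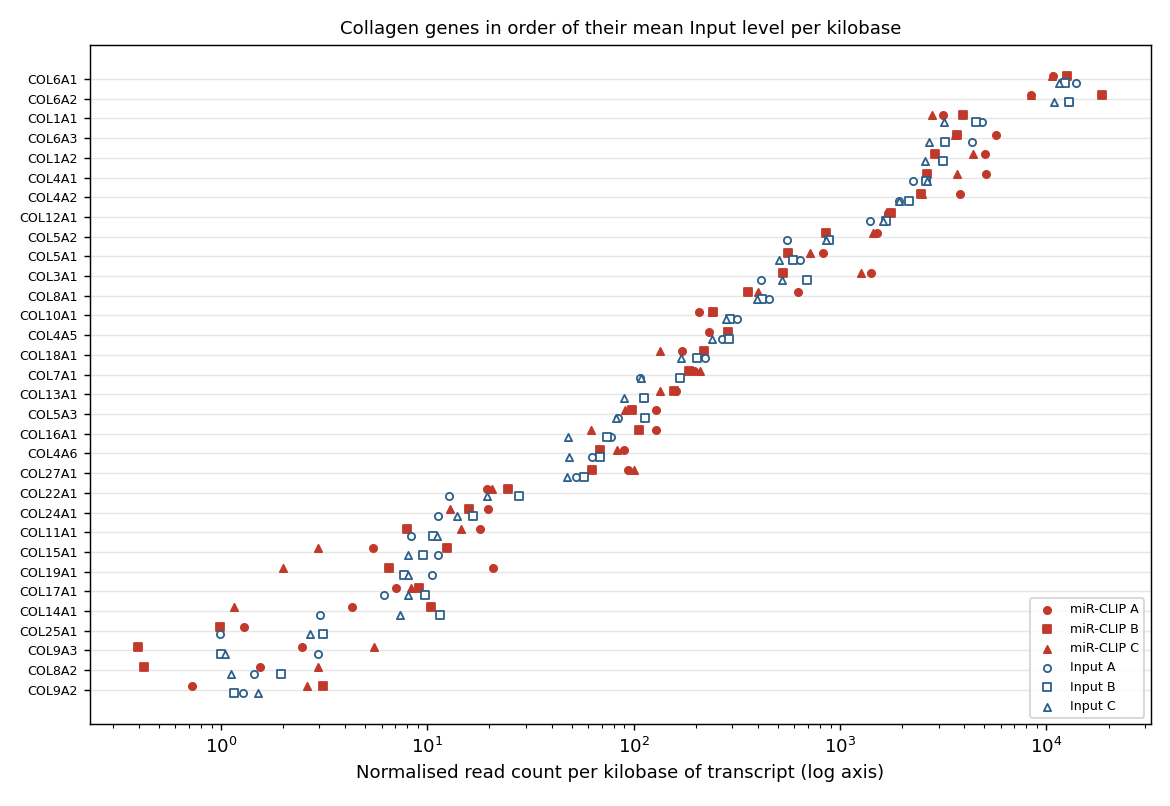
Normalised reads per kb of transcript (log axis) in each library for the 32 collagen genes drawn, ordered by their Input mean, with miR-CLIP above Input. A value of 0, as for COL25A1 in miR-CLIP C, cannot be drawn on the log axis. COL6A1 and COL6A2 stand at the top.

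Of the fibrillar genes, 10 of 11 were tested and 9 had a positive log2 fold change, with a median of 0.40. Type I collagen, the bulk of interstitial fibrils, is built from COL1A1 and COL1A2 chains, and COL1A1 carries a 7mer-A1 in its 3′ UTR. COL1A1 (chr17:50183289-50201632) had 21158, 26383 and 18859 normalised reads in miR-CLIP and 32771, 30758 and 21445 in Input. COL1A2 (chr7:94394561-94431232) had 27404, 15631 and 23790 in miR-CLIP and 16807, 17119 and 13910 in Input. miR-CLIP A and C were thus above every Input library for COL1A2 and below every one for COL1A1, and miR-CLIP B lay inside the Input range for both. The log2 fold change was -0.35 ± 0.32 (SE, limma adjusted p = 0.671) for COL1A1 and 0.45 ± 0.32 (limma adjusted p = 0.616) for COL1A2.

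Type III collagen, a homotrimer that mixes with type I in distensible tissue, comes from COL3A1 (chr2:188974320-189012746). COL3A1 had 7812, 2922 and 7020 normalised reads in miR-CLIP and 2282, 3833 and 2895 in Input, a log2 fold change of 0.89 ± 0.41 (limma adjusted p = 0.611). miR-CLIP A and C stood far above Input and miR-CLIP B lay inside the Input range. COL5A1 (chr9:134641774-134844843) and COL5A2 (chr2:189031896-189179879) give the type V chains, which nucleate type I fibrils and set their width. COL5A2 had 10664, 6041 and 10256 in miR-CLIP and 3919, 6258 and 6066 in Input (log2 fold change 0.72 ± 0.33, limma adjusted p = 0.611). COL5A1 had 7017, 4732 and 6088 in miR-CLIP and 5429, 4984 and 4302 in Input (0.27 ± 0.27, limma adjusted p = 0.695). In both genes miR-CLIP A and C lay above every Input library and miR-CLIP B did not.

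COL27A1 (chr9:114155560-114312511) encodes a fibrillar chain known from cartilage. It had 730, 488 and 779 normalised reads in miR-CLIP and 410, 448 and 371 in Input, without overlap, and a log2 fold change of 0.67 ± 0.29 (unadjusted p = 0.0453, limma adjusted p = 0.611). COL5A3 (chr19:9959561-10010471), a further type V chain and a carrier of a coding site, had 795, 603 and 560 in miR-CLIP and 519, 699 and 506 in Input (0.18 ± 0.28, limma adjusted p = 0.804), and the groups overlapped. The lower fibrillar genes ranged from 0.21 for COL24A1 to 1.51 ± 0.68 for COL11A2 (chr6:33162681-33192499), a minor fibril chain of cartilage. COL11A2 rested on 19, 7 and 21 reads in miR-CLIP and 5, 6 and 8 in Input. COL11A1 had a log2 fold change of 0.35 ± 0.43, and COL2A1, the main cartilage chain, was not tested at 0, 2 and 0 reads in miR-CLIP and 6, 1 and 0 in Input.

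The tested type IV genes, 4 of 6, all had a positive log2 fold change, with a median of 0.47, except that COL4A5 turned to -0.0348 with TMM factors. COL4A1 (chr13:110148963-110307149) and COL4A2 (chr13:110305812-110513027) lie head to head and give the chains of the basement membrane network found in nearly all tissues. Their annotated spans overlap but their annotated exons do not. COL4A1 had 33631, 17426 and 24506 normalised reads in miR-CLIP and 14870, 17177 and 17480 in Input (0.56 ± 0.33, limma adjusted p = 0.611). COL4A2 had 24761, 16026 and 16192 in miR-CLIP and 12524, 14037 and 12502 in Input (0.52 ± 0.30, limma adjusted p = 0.611). The groups did not overlap for COL4A2, and for COL4A1 only miR-CLIP B fell inside the Input range.

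COL4A5 (chrX:108439844-108697545) and COL4A6 (chrX:108155607-108439497), neighbours on the X chromosome, give chains of the network found in skin and smooth muscle basement membranes. COL4A6 had 603, 465 and 559 normalised reads in miR-CLIP and 422, 463 and 327 in Input (0.43 ± 0.28, limma adjusted p = 0.611). COL4A5 had 1499, 1866 and 1833 in miR-CLIP and 1737, 1885 and 1548 in Input (0.01 ± 0.24, limma adjusted p = 0.996). The groups did not overlap for COL4A6, although miR-CLIP B and Input B nearly met, and overlapped widely for COL4A5. COL4A3 and COL4A4, the other kidney and lung basement membrane chains, had at most 3 reads in a library and were not tested.

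Type VI chains come from COL6A1 (chr21:45981737-46005050) and COL6A2 (chr21:46098097-46132849), neighbours on chromosome 21, and from the long COL6A3 (chr2:237324003-237414375). COL6A1 had 45608, 53538 and 45027 normalised reads in miR-CLIP and 58881, 51861 and 48548 in Input (-0.14 ± 0.32, limma adjusted p = 0.87). COL6A2 had 29021, 64566 and 29158 in miR-CLIP and 44723, 44646 and 37668 in Input (-0.15 ± 0.40, limma adjusted p = 0.891). For COL6A2, miR-CLIP A and C lay below every Input library while miR-CLIP B lay above all of them. With upper-quartile scaling both genes had a positive log2 fold change, 0.068 for COL6A1 and 0.058 for COL6A2. COL6A3, the carrier of a 7mer-m8 in its 3′ UTR and of another in its coding sequence, had 61245, 39711 and 38683 in miR-CLIP and 47057, 34750 and 28913 in Input (0.33 ± 0.36, limma adjusted p = 0.717), and the groups overlapped. COL6A5 and COL6A6, which can replace COL6A3 in the trimer, were tested on at most 10 reads per library, with log2 fold changes of -0.31 ± 0.88 and 0.16 ± 1.01. The median over the 5 type VI genes was -0.14.

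Of the fibril-associated genes, 8 of 9 were tested and 6 had a positive log2 fold change, with a median of 0.25. COL12A1 (chr6:75084326-75206051) gives type XII, which bridges type I fibrils. COL12A1 had 19915, 20690 and 19788 normalised reads in miR-CLIP and 16357, 19483 and 18922 in Input (0.15 ± 0.27, limma adjusted p = 0.843), so the groups did not overlap but lay close together. COL16A1 (chr1:31652247-31704319), a minor chain of fibroblast matrix, had 737, 612 and 356 in miR-CLIP and 443, 426 and 277 in Input (0.54 ± 0.36, limma adjusted p = 0.611). COL22A1 (chr8:138588235-138914006), known from tissue junctions such as muscle and tendon, had 124, 157 and 130 in miR-CLIP and 80.8, 176 and 124 in Input (0.17 ± 0.39, limma adjusted p = 0.875). Both COL16A1 and COL22A1 overlapped between groups. The lower genes ranged from -0.73 ± 0.83 for COL14A1, which binds fibril surfaces, to 0.42 ± 0.68 for COL9A2, a cartilage chain, with COL19A1 at -0.40, COL9A3 at 0.34 and COL21A1 at 0.37 between them. COL9A1, with sites in its 3′ UTR, had 0, 1 and 0 reads in miR-CLIP and 0, 1 and 0 in Input and was not tested.

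Among the other types, COL7A1 (chr3:48564073-48595267) encodes the chain of the anchoring fibrils that tie epithelium to the dermis. It had 1809, 1728 and 1935 normalised reads in miR-CLIP and 998, 1549 and 1007 in Input, without overlap, with a log2 fold change of 0.65 ± 0.27 (unadjusted p = 0.0395, limma adjusted p = 0.611). COL13A1 (chr10:69801931-69964275), a transmembrane collagen of cell adhesion sites, had 509, 499 and 425 in miR-CLIP and 356, 358 and 286 in Input (0.52 ± 0.27, limma adjusted p = 0.611), also without overlap. The short network chain COL10A1 (chr6:116118923-116158747), known from hypertrophic cartilage, had 722, 847 and 835 in miR-CLIP and 1110, 1020 and 981 in Input (-0.37 ± 0.24, limma adjusted p = 0.611). These are the only 3 of the 12 genes of other types whose groups did not overlap.

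COL8A1 (chr3:99638475-99799226), a short network chain of vessel walls and of the membrane under corneal endothelium, had 3559, 2048 and 2286 normalised reads in miR-CLIP and 2592, 2383 and 2261 in Input (0.08 ± 0.28, limma adjusted p = 0.917). COL18A1 (chr21:45405137-45513720), the source of endostatin, had 1125, 1436 and 884 in miR-CLIP and 1465, 1339 and 1116 in Input (-0.21 ± 0.28, limma adjusted p = 0.777, and 0.0062 with upper-quartile scaling). The groups overlapped in both genes. Annotated exons of COL18A1 share 1401 of 8525 nt, 16.4%, with SLC19A1 on the opposite strand, and the sources used here do not say whether counting used strand. COL15A1, the other multiplexin, had -0.68 ± 0.59, COL8A2 -0.14 ± 0.74 and COL28A1 -0.08 ± 0.83, and with upper-quartile scaling the last 2 turned to 0.0666 and 0.0034. Of the transmembrane chains COL17A1 had 0.05 ± 0.44, and COL25A1 had -1.90 ± 0.99 at 10.3, 7.94 and 0 normalised reads in miR-CLIP and 7.96, 24.9 and 21.7 in Input. COL23A1 and COL26A1 had at most 1 read in a library and were not tested.

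The level of each miR-CLIP library was set against the Input range for the 22 genes with an Input mean of at least 100. miR-CLIP A lay above all Input libraries in 15 genes, below in 5 and inside the range in 2. miR-CLIP C lay above in 11, below in 5 and inside in 6. miR-CLIP B lay above in 8, below in 2 and inside in 12, so it was the library nearest to Input among the collagens. The median SD of log2 values over these genes was 0.319 in miR-CLIP and 0.177 in Input, and the SD was larger in miR-CLIP in 15 of the 22. Over all 4349 tested genes with such an Input mean the median SD was 0.557 in miR-CLIP and 0.183 in Input.

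**Figure D3:**
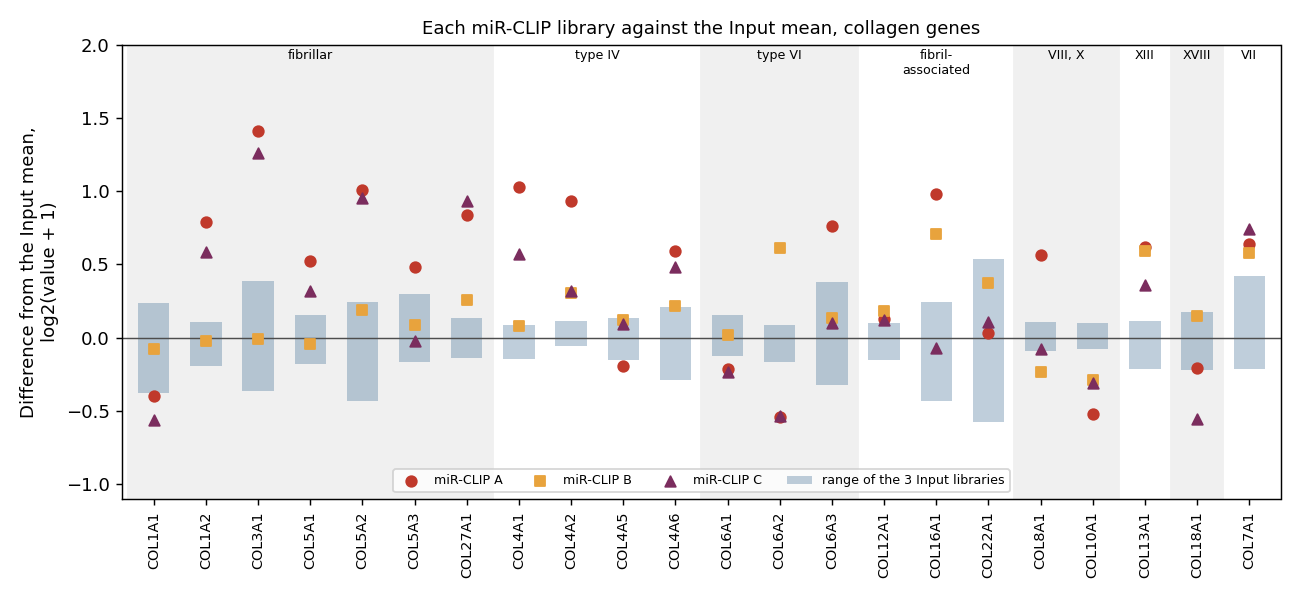
Log2 value of each miR-CLIP library minus the Input mean for the 22 collagen genes with an Input mean of at least 100, on the log2(value + 1) scale, with a blue bar for the range of the 3 Input libraries. miR-CLIP A lies above the bar in 15 genes and miR-CLIP B in 8.

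Without miR-CLIP B, limma called 6 collagen genes higher in miR-CLIP at an adjusted p under 0.05, 16.2% of those tested against 12.6% of all genes tested, and none lower, against 16.1%. Only 2 miR-CLIP libraries then stand behind the miR-CLIP level, and the library left out was the one nearest to Input. The called genes were the type IV gene COL4A1, with a log2 fold change of 0.80 ± 0.23 (limma adjusted p = 0.032), and 5 fibrillar genes. COL3A1 had 1.33 ± 0.23 (limma adjusted p = 0.00561), COL27A1 0.88 ± 0.18 (0.0111), COL5A2 0.98 ± 0.24 (0.0189), COL1A2 0.69 ± 0.21 (0.0415) and COL11A2 2.04 (0.0414). COL1A1 had -0.48 in that fit (limma adjusted p = 0.187). With edgeR on reads recovered from the values, also without miR-CLIP B, the same 6 genes were called higher, with 11.7% of all genes tested called higher. COL6A2 was called lower (-0.63, edgeR adjusted p = 0.0446), with 15.8% of all genes tested called lower and 27.6% called in either direction.

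Collagen messages are long. The tested collagen genes had a median transcript length of 6425 nt and a GC content of 55.2%, against 3076 nt and 49.8% for all tested protein-coding genes. Across 6338 tested protein-coding genes, the difference of a miR-CLIP library from the Input mean had a Spearman correlation with transcript length of 0.445, -0.498 and 0.357 for libraries A to C, and with GC content of 0.022, 0.458 and 0.033. Genes share their library in such a correlation and are not independent replicates. Over the 22 collagen genes with an Input mean of at least 100, the same correlation was 0.231, 0.069 and 0.308 with length, and -0.154, 0.438 and -0.248 with GC content.

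With the length and GC trend across genes removed from each library, the collagen median was -0.32, against -0.15 for all genes tested, so the sign of the collagen median turned. Several positive log2 fold changes became smaller: COL11A2 had 1.00, COL3A1 0.49, COL13A1 0.33, COL5A2 0.26, COL27A1 0.11, COL4A1 0.07, COL16A1 0.07, COL1A2 0.04, COL7A1 0.03 and COL4A2 0.01. Others turned negative, among them COL4A6 (0.43 before, -0.0615 after) and COL6A3 (0.33 before, -0.26 after). None of these passed an adjusted p of 0.05 with all 6 libraries. Without miR-CLIP B and with the trend removed, an alternative added after seeing the data, limma called no collagen gene higher, where 6.87% of all genes tested were called higher. The same fit called 9 collagen genes lower, 24.3% against 15.3% of all genes tested. These were COL1A1 (-1.29, limma adjusted p = 0.00526), COL18A1 (-1.25, 0.00413), COL6A2 (-0.90, 0.0155), COL12A1 (-0.85, 0.0147), COL4A5 (-0.82, 0.012), COL6A1 (-0.71, 0.0446), COL10A1 (-0.69, 0.0213), COL5A1 (-0.49, 0.0423) and COL15A1 (-1.88, 0.0285). The 6 genes called higher without miR-CLIP B are not among the 9, and they were not called once the trend was removed.

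**Figure D4:**
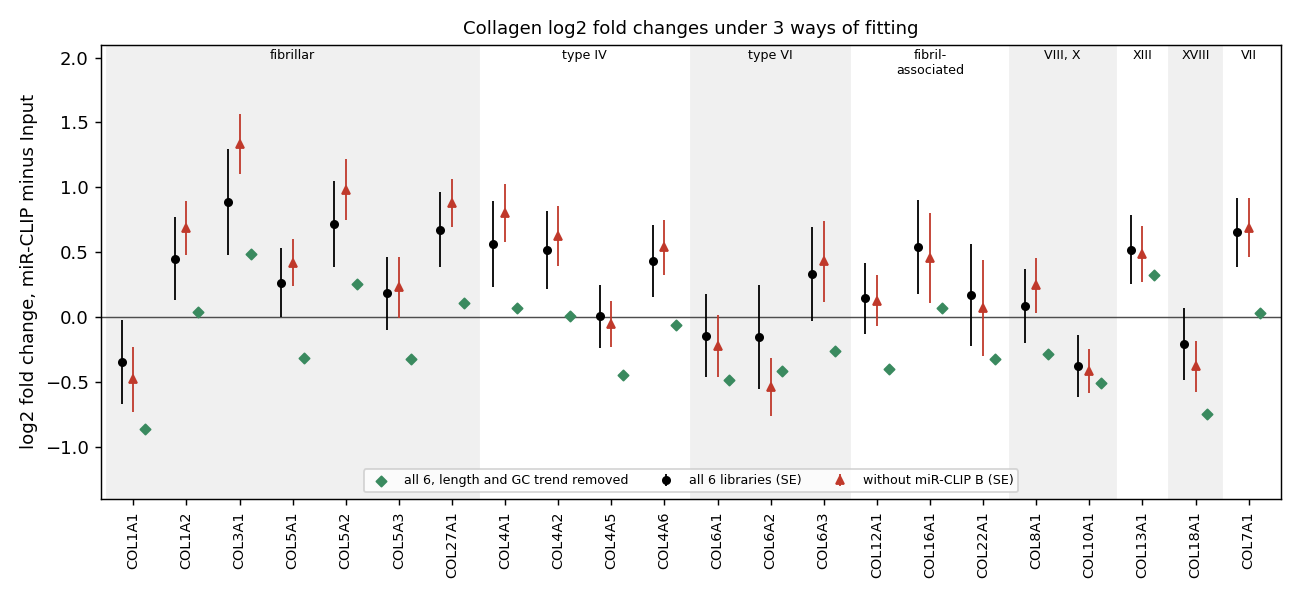
Log2 fold change, miR-CLIP minus Input, of the 22 collagen genes with an Input mean of at least 100: black points are limma with all 6 libraries, red triangles limma without miR-CLIP B, each with its standard error, and green diamonds all 6 libraries with the length and GC trend removed. COL3A1 has 0.89, 1.33 and 0.49 in these fits, and COL1A1 has -0.35, -0.48 and -0.87.

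Chains of one trimer or of neighbouring types were compared within each library as ratios of normalised reads per kb, over 7 ratios, with a two-sided exact permutation test whose smallest possible p is 0.1 for 3 against 3 libraries. COL1A1 over COL1A2 was 0.621, 1.36 and 0.638 in miR-CLIP and 1.57, 1.45 and 1.24 in Input (exact p = 0.2, adjusted 0.35). COL3A1 over COL1A1 was 0.448, 0.134 and 0.452 in miR-CLIP and 0.0845, 0.151 and 0.164 in Input (exact p = 0.3, adjusted 0.42). In both ratios miR-CLIP A and C stood away from Input on the same side and miR-CLIP B lay inside the Input range.

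COL4A5 over COL4A6 was 2.59, 4.18 and 3.41 in miR-CLIP and 4.29, 4.24 and 4.93 in Input (exact p = 0.1, adjusted 0.35), the only ratio whose groups did not overlap. COL5A2 over COL5A1 was 1.82, 1.53 and 2.02 in miR-CLIP and 0.864, 1.50 and 1.69 in Input (exact p = 0.2, adjusted 0.35). COL4A1 over COL4A2 was 1.33, 1.07 and 1.49 in miR-CLIP and 1.17, 1.20 and 1.37 in Input (exact p = 0.9, adjusted 1). The ratios within type V and within the COL4A1 and COL4A2 network thus overlapped between groups.

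Within type VI, COL6A1 over COL6A2 was 1.28, 0.677 and 1.26 in miR-CLIP and 1.08, 0.949 and 1.05 in Input (exact p = 1, adjusted 1). miR-CLIP A and C lay above every Input library and miR-CLIP B below every one. COL6A3 over COL6A1 was 0.529, 0.292 and 0.339 in miR-CLIP and 0.315, 0.264 and 0.235 in Input (exact p = 0.2, adjusted 0.35).

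**Figure D5:**
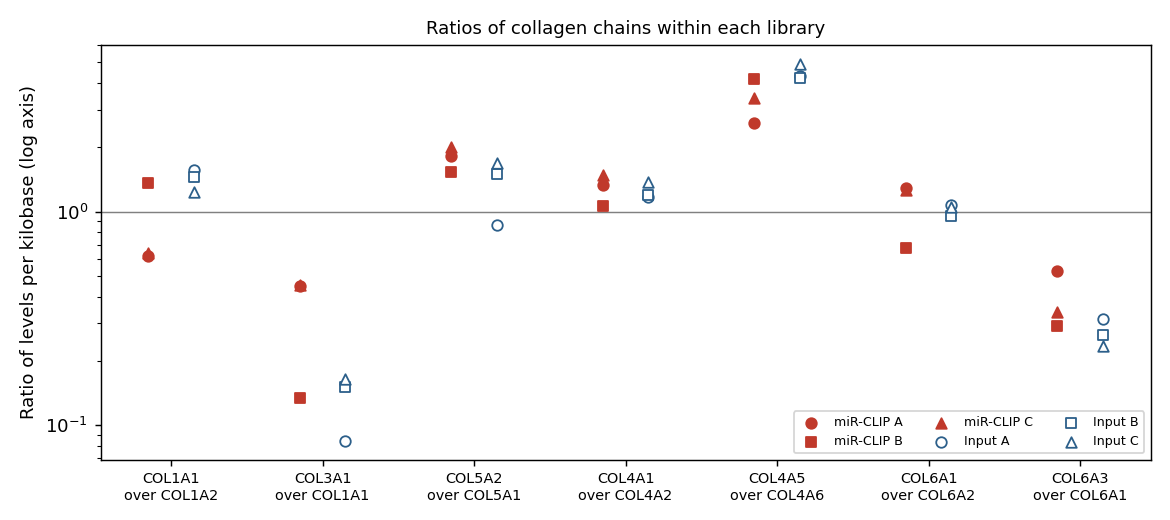
Ratios of normalised reads per kb between chains (log axis) in each library, with miR-CLIP left of Input. For COL1A1 over COL1A2, miR-CLIP A and C lie at 0.621 and 0.638, and miR-CLIP B and all Input libraries at 1.24 or above.

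Other genes of the collagen pathway were taken from lists and none passed an adjusted p of 0.05 in limma with all 6 libraries. Listed genes without a row in the table could not be assessed and are not read as unexpressed. Why they have no row was not tested, and each median below covers the tested genes only. Without miR-CLIP B, limma called 12.6% of all genes tested higher and 16.1% lower, and the pathway calls in that fit stand beside these shares. Of the genes for chain folding and modification, 5 of 24 listed were in the table and all 5 were tested, 1 with a positive and 4 with a negative log2 fold change (median -0.16). Those with the smallest p were FKBP14 (-0.40 ± 0.29) and FKBP10 (-0.33 ± 0.37), prolyl isomerases of the endoplasmic reticulum, and COLGALT1 (-0.16 ± 0.25), which glycosylates hydroxylysine. Without miR-CLIP B, 1 of the 5, FKBP10, was called lower (-0.74, limma adjusted p = 0.0235). Of the genes for collagen export, 5 of 13 were tested (median 0.09): CREB3L1, a transcription factor that switches on collagen secretion, had -0.51 ± 0.26, KLHL12, which enlarges transport carriers, 0.65 ± 0.40, and CTAGE5, a partner of the export receptor at exit sites, 0.74 ± 0.64. Without miR-CLIP B, KLHL12 was called higher (1.13, limma adjusted p = 0.00312) and CREB3L1 lower (-0.68, limma adjusted p = 0.0192). Of the genes for propeptide trimming and crosslinking, 4 of 13 were tested (median 0.08), and the procollagen N-proteinases ADAMTS14, ADAMTS2 and ADAMTS3 had 0.33 ± 0.52, 0.19 ± 0.30 and -0.12 ± 0.37. None of the 4 was called without miR-CLIP B.

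Of the breakdown genes, 5 of 17 were tested (median -0.25): the lysosomal proteases CTSS and CTSL had -0.86 ± 0.39 and 0.58 ± 0.30, and FAP, a surface protease of activated fibroblasts, had -0.35 ± 0.29. Without miR-CLIP B, 1 of the 5, CTSS, was called lower (-1.28, limma adjusted p = 0.00472). Of the collagen receptors, 8 of 11 were tested, 3 positive and 5 negative (median -0.17), with ADGRG1 at -0.76 ± 0.43, the integrin chain ITGA11 at -0.37 ± 0.33 and the receptor kinase DDR1 at 0.36 ± 0.35. ADGRG1 alone of the 8 was called without miR-CLIP B (-1.11, limma adjusted p = 0.0465). Of the fibril-binding proteoglycans, 3 of 9 were tested and all 3 were negative (median -0.90). BGN had 227, 1482 and 331 normalised reads in miR-CLIP and 1002, 1437 and 882 in Input (-1.17 ± 0.63), DCN had 440, 3887 and 715 in miR-CLIP and 1263, 2858 and 2210 in Input (-0.90 ± 0.73), and FMOD had -0.52 ± 0.77. For both BGN and DCN, miR-CLIP A and C lay below every Input library and miR-CLIP B above every one. Without miR-CLIP B, limma called BGN (-1.98, adjusted p = 0.00209) and DCN (-1.83, adjusted p = 0.00823) lower, 2 of the 3. In that fit 16.1% of all genes tested were called lower and 12.6% higher.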

How the data were processed

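RNA-seq values for 18234 genes, in 3 libraries of each group, were read from 1 deposited table. Each is a signal value that the authors made from gene read counts and 1 factor per library, as read from the values: all values were whole multiples of their column's step, within 1e-06. That step, the worth of 1 read, was 1.03, 0.993 and 1.25 for miR-CLIP A to C and 0.612, 0.832 and 0.867 for Input A to C. The authors deposited, beside these, a ratio (fold change) with its p-value and adjusted p-value for each gene, per the file headers. Build GRCh38, Trimmomatic 0.35, STAR 2.5.1b and DESeq2 1.22.2 are named, without roles, per the submitters' processing notes. The sources used here do not give the counting program, its strand setting or its annotation. Library letters come from the column names, and the labels do not tie them to replicate numbers.

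The main test was limma 3.58.1 (R 4.3.3), two-sided, with a mean-variance trend, on log2(value + 1) with group as the only term, over the 8506 genes that reached 1 in at least 3 libraries and with Benjamini-Hochberg adjustment over all of them. Fold changes are on that log2 scale, which understates the change of low genes. Because the values are normalised, count tests (edgeR 4.0.16, DESeq2 1.42.0, limma-voom) served only as alternatives, on reads recovered with the steps above. For miR-CLIP B, whose step is close to 1, a separate check did not accept the recovered reads, so results from them carry that doubt. Length and GC trends were removed with mgcv 1.9.3. The limma fit alone was tested on simulated reads, drawn for both groups with the spread of the Input libraries. The larger spread of the miR-CLIP libraries was thus not covered by that test. Transcript lengths, exons and sites came from GENCODE release 29, whose gene spans equal those of the table for 33 of the 43 collagen genes. Genes with an Input mean of at least 100 normalised reads were described in full. Lower tested genes were named where lowest or highest of their type or at an unadjusted p under 0.05 or, chosen after their values were seen, to account for every member, and the 3 smallest p-values of each pathway list were named with IRAK1. The members, lists and tests were chosen with earlier results of these data known.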

Additional observations from a re-analysis of the deposited data

How the results depend on the processing

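At adjusted p under 0.05 in limma no gene was called with all 6 libraries, and 204 genes on the higher and 344 on the lower side had an unadjusted p under 0.05. DESeq2 called 2 genes over the table. Leaving out 1 library at a time gave 0 to 2442 genes called and 0 to 6 collagen genes called, the highest of each without miR-CLIP B. edgeR without miR-CLIP B called 2344 genes and 7 collagen genes, and limma without miR-CLIP B and with the length and GC trend removed called 1881 genes and 9 collagen genes. Both of these were added after seeing the data. The number of collagen genes at an unadjusted p under 0.05 was 2 with the main settings, 1 with no filter on low values, 4 with upper-quartile scaling, 0 with TMM factors, 0 with limma-voom, 1 with the length and GC trend removed, 13 with edgeR without miR-CLIP B, 13 without miR-CLIP B and with the trend removed, and 0 to 13 over the libraries left out. edgeR and DESeq2 with all 6 libraries gave 3 each. The collagen median of 0.18 was -0.32 with the trend removed and -0.49 with miR-CLIP B left out as well. Scaling moved the median of all genes, which was -0.13 as deposited, 0.06 with upper-quartile scaling and -0.17 with TMM. Among the 22 genes described in full the sign turned as follows, and the cause was not tested. With upper-quartile scaling COL6A1 had 0.068, COL6A2 0.058 and COL18A1 0.0062. COL4A5, at 0.01, had -0.0348 with TMM, -0.0211 with edgeR, -0.0215 with limma-voom, -0.0028 with DESeq2 and -0.14 with edgeR without miR-CLIP B, where COL22A1 had -0.0869. With the trend removed, and then without miR-CLIP B as well, COL4A5 had -0.44 and -0.82, COL4A6 -0.0615 and -0.26, COL5A1 -0.32 and -0.49, COL5A3 -0.32 and -0.55, COL6A3 -0.26 and -0.54, COL8A1 -0.29 and -0.44, COL12A1 -0.40 and -0.85 and COL22A1 -0.32 and -0.70. Only in the fit with both changes did COL4A2 (-0.17), COL7A1 (-0.29) and COL16A1 (-0.26) turn. Over the libraries left out, the log2 fold change ran from -0.0697 to 0.11 for COL4A5, -0.54 to 0.0397 for COL6A2, -0.15 to 0.24 for COL8A1 and -0.12 to 0.44 for COL22A1. Of the 15 lower tested genes, 9 changed sign under upper-quartile scaling, edgeR, the trend removal or the loss of miR-CLIP B, alone or together: COL6A6, COL8A2, COL9A2, COL11A1, COL17A1, COL19A1, COL21A1, COL24A1 and COL28A1. With a replicate block on the library letter no collagen gene was called and 0 had an unadjusted p under 0.05. Libraries of the same letter had correlations of their deviations of 0.140, 0.107 and 0.0857, and each correlated best with its own letter, but the labels do not say that a letter marks a shared culture. Depth limits the genes under 100 normalised reads, whose standard errors reached 1.01.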
